A study of Mus musculus with 4 samples.

Results

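DNA methylation of CD4+CD25hi regulatory T cells (Treg) was compared with that of CD4+CD25- effector T cells (Teff) from the spleens of NOD mice given OX40L-JAG1. The comparison used every cytosine position with at least 5 reads in both libraries, whatever the coverage elsewhere, grouped into fixed windows of 1 kb with at least 5 such positions. This gave 6718228 of 25374149 listed positions and 511825 windows, of 1965641 windows with at least 5 listed positions in the study. All differences are Treg minus Teff, in percentage points of methylated reads.

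The study held 4 whole-genome bisulfite libraries of genomic DNA, 1 of Treg and 1 of Teff from mice given PBS and likewise from mice given OX40L-JAG1. All mice were NOD, a strain that develops autoimmune diabetes spontaneously, were 6 weeks old at the first weekly dose, were dosed for 3 weeks, and were 10 weeks old when spleen cells were sorted. OX40L binds OX40, a costimulatory receptor of T cells, and JAG1 (Jagged-1) binds Notch receptors. The labels give neither the sex of the mice nor the number of mice behind a library, and CD25, the sorting marker, also rises on activated effector cells. With 1 library on each side, tests and intervals describe these libraries and counting error only, and no spread between mice could be measured.

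In bisulfite sequencing an unmethylated cytosine reads as thymine, so the share of reads that still show cytosine is the methylation level. In mammals nearly all methylation lies at CpG pairs, gene bodies are mostly methylated, and CpG-dense promoters and active enhancers are not. Stable Treg keep enhancer-like regions of Foxp3, Ikzf2, Il2ra and Ctla4 unmethylated while conventional T cells methylate them, which makes methylation a common test of Treg identity. In female mammals 1 X chromosome of each cell is silenced and its promoters are methylated.

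The kept positions carried a median of 7 reads in Treg and 9 in Teff, and a window held a median of 59 and 73 reads, where a read that spans several positions enters the sum at each of them. Mitochondrial cytosines, which bear on incomplete conversion, were called methylated in 0.620% of Treg reads and 0.712% of Teff reads. Over all other kept positions 82.0% of reads were methylated in Treg and 81.5% in Teff, a difference of 0.520 points (95% Newcombe interval from 0.510 to 0.531). The pooled difference was above 0 on every autosome, from 0.385 to 0.585 points, and it was 0.657 points on the X chromosome. The library as a whole was thus slightly more methylated in Treg, and the differences below are much larger and local.

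The gene of Foxp3, the master transcription factor of Treg, carried less methylation in Treg near its start and in its body. The sequence that follows is the RefSeq promoter interval of a Foxp3 transcript (GRCm38.p6, plus strand, chrX:7580233-7580532), shown because it was the only measured promoter called lower in Treg. Capitals mark the 6 CpG pairs, of 8 in the sequence, whose methylation was measured, on the cytosines of the opposite strand.
Foxp3: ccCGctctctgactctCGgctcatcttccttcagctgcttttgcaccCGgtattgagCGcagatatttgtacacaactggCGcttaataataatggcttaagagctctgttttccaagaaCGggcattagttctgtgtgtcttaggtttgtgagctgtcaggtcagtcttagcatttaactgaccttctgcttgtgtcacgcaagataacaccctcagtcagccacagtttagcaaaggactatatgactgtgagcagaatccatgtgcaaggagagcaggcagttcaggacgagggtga

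These 6 CpG pairs stood at 47.8% in Treg, from 46 reads, and 93.8% in Teff, from 64 reads, a difference of -45.9 points (interval from -60.1 to -29.4). The adjusted p was 2.42e-05 by Fisher's exact test over 1239 promoters. Positions this close can share reads, so the 46 and 64 reads may come from fewer molecules. From the 5′ end of the sequence, the levels in Treg were 50%, 44.4%, 42.9%, 57.1%, 55.6% and 33.3%. In Teff they were 100%, 92.3%, 83.3%, 100%, 88.9% and 100%, so each pair was lower in Treg and the ranges did not overlap. In the PBS pair of libraries the same interval stood at 29.8% in Treg and 95.2% in Teff. At another RefSeq start of Foxp3, chrX:7579426-7579725, a single position was measured, at 12.5% of 8 reads in Treg and 10% of 10 reads in Teff. There the PBS pair had 7 positions, at 58.6% in Treg and 37.5% in Teff, so the start sites did not share a direction in PBS mice.

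Windows around Foxp3 (chromosome X, 7579676 to 7595243) gave the same picture. Of 6 tested windows all were lower in Treg, 5 by at least 20 points, and 2 were called. A window was called when Fisher's exact test on its methylated and unmethylated reads gave a Benjamini-Hochberg adjusted p under 0.05 over all windows and the difference reached 20 points. The called window at 7580001, which holds the promoter interval above and also lies in the long noncoding RNA gene Flicr, stood at 51.6% in Treg and 90.0% in Teff. The called window at 7584001, in the gene body, stood at 36.8% in Treg and 88.0% in Teff, a difference of -51.2 points (adjusted p = 7.05e-07, Fisher's exact test). All 11 of its positions and all 9 of the first window were lower in Treg, though the calls rest on the sum of the same positions. Position levels in the window at 7584001 ran from 0% to 66.7% in Treg and from 66.7% to 100% in Teff, with 5 to 9 reads a position. The window at 7598001, beyond the gene, stood at 88.2% and 92.7%. Exons and introns were not annotated here, so windows were not matched to named Foxp3 enhancers.

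Ikzf2, which encodes Helios, a transcription factor of Treg, held more called windows than any other gene. Of 65 tested windows at the gene (chromosome 1, 69531207 to 69687351, with 5 kb on either side), 24 were called lower in Treg and 0 higher, and 47 had an interval wholly below 0. The largest difference, in points, stood in a run of 8 called windows among 9 tested, chr1:69667001-69683000, where the differences ran from -48.3 to -76.9 points. Its window at 69676001 stood at 9.30% in Treg and 83.6% in Teff (adjusted p = 1.31e-10, Fisher's exact test). The window at 69674001 stood at 23.1% in Treg and 100% in Teff. Other runs of 4, 4 and 3 called windows lay at 69642001, 69655001 and 69549001.

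The gene was not lower in Treg along its whole length, and the windows that were not called had a median difference of -11.8 points. The window at 69567001 was methylated in both cell types, at 96.1% in Treg and 97.1% in Teff. The windows at 69685001 and 69686001 near the higher-coordinate end were nearly unmethylated in both, at 0.980% and 3.16% in Treg and at 0.733% and 1.47% in Teff. The gene with its flanks stood at 53.0% in Treg and 79.8% in Teff, a locus difference of -26.9 points, where a locus value pools all kept positions of the gene and 5 kb on either side.

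**Figure D1:**
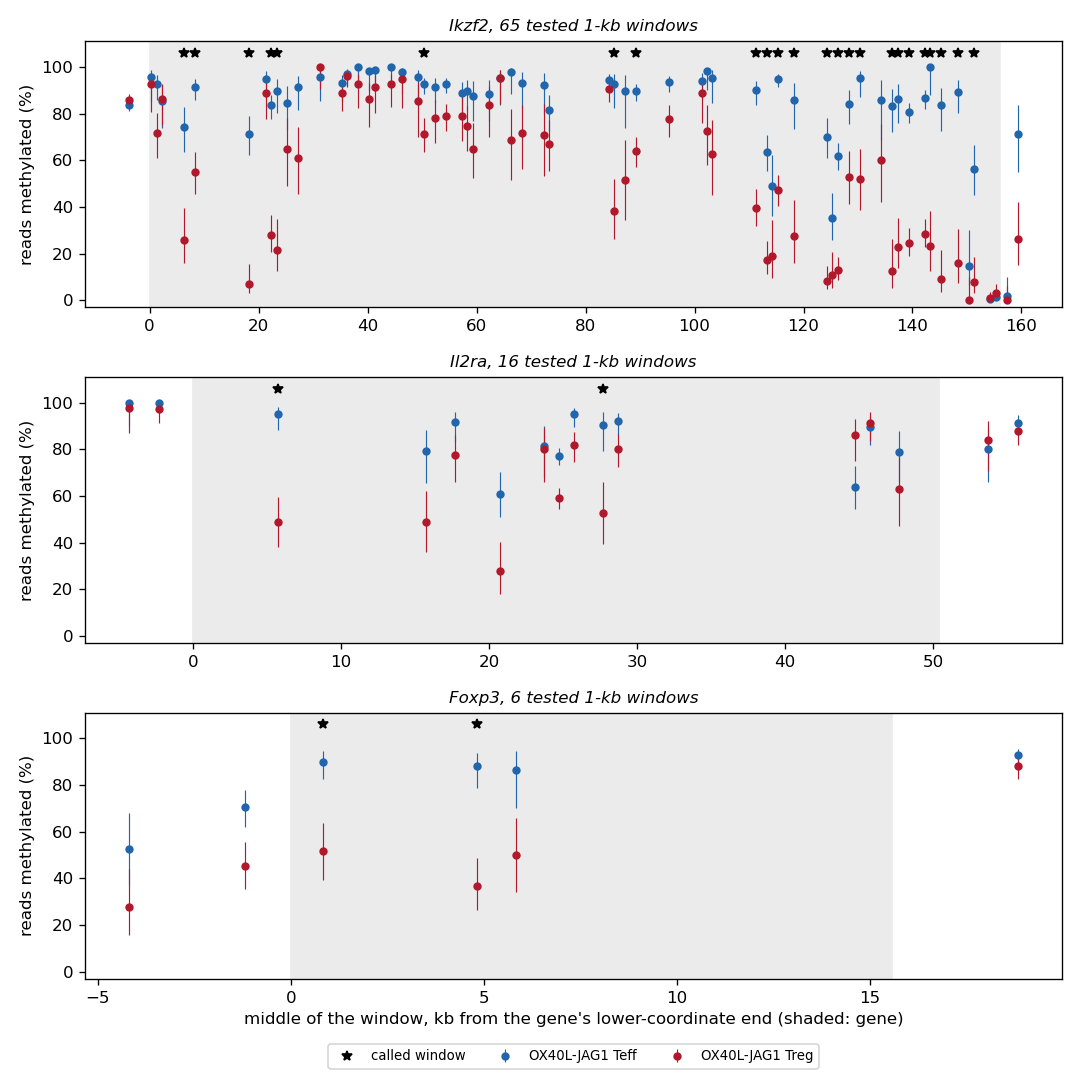
Methylated reads (%) in each tested 1-kb window of Ikzf2, Il2ra and Foxp3 against the distance of the window from the gene's lower-coordinate end in kb, for OX40L-JAG1 Teff (blue) and Treg (red), 1 library each. Bars are 95% Wilson intervals, stars mark called windows (24, 2 and 2) and the shading spans the gene.

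Il2ra encodes CD25, the alpha chain of the IL-2 receptor and the marker of the sort. Its locus stood at 64.5% in Treg and 77.6% in Teff, and 2 of 16 windows were called, both lower in Treg. The window at chromosome 2, 11648001, stood at 48.7% in Treg and 95.1% in Teff, and that at 11670001 at 52.9% and 90.4%. Against this direction, the window at 11687001 stood at 86.2% in Treg and 64.0% in Teff and was not called (adjusted p = 0.483, Fisher's exact test). The window at 11667001, at 59.0% and 77.0%, passed the adjusted p but its difference of -18.0 points was under 20. The loci of Foxp3, Ikzf2 and Il2ra, the genes that mark Treg, were thus each lower in the library labelled Treg, as they were in the PBS pair.

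Other genes of the Treg signature followed in the same direction, in part. Ikzf4 encodes Eos, an Ikaros family factor that works with Foxp3, and its window at chromosome 10, 128637001, stood at 9.05% of 475 reads in Treg and 41.5% of 605 reads in Teff. The neighbouring called window at 128641001 stood at 64.8% and 91.8%. Tigit, an inhibitory receptor, stood at 22.7% and 57.1% in its 1 called window of 13, at chromosome 16, 43628001. Cd83, a surface protein of activated lymphocytes and dendritic cells, stood at 42.0% and 71.3% in its 1 called window of 3, at chromosome 13, 43787001.

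Ctla4, the inhibitory receptor through which Treg restrain dendritic cells, had the largest locus difference of the signature list and no called window. Its locus stood at 25.5% in Treg and 60.0% in Teff, a difference of -34.5 points (interval from -39.9 to -28.8). The 10 measured positions in the gene body (chromosome 1, 60909025 to 60915832) lay at most 3 to a window, so none of those windows could be tested. They stood at 8.87% of 293 reads in Treg and 60.2% of 354 reads in Teff, and at 21.5% and 81.1% in the PBS pair. Most of those reads came from 2 deep positions. Position 60910353 stood at 6.13% of 163 reads and 66.7% of 198 reads, and position 60910640 at 15.5% of 84 reads and 65.3% of 98 reads. Without these 2 positions the gene body stood at 6.52% of 46 reads and 29.3% of 58 reads, a smaller difference of -22.8 points (interval from -36.2 to -7.85). Ctla4 was singled out after its values were seen.

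Tnfrsf4, which encodes OX40, the receptor of the OX40L given to these mice, was also lower in Treg as a locus, at 17.5% against 36.6%. That difference was -19.1 points (interval from -28.0 to -9.72), and neither of its 2 tested windows was called. The genes of the related receptors GITR (Tnfrsf18) and 4-1BB (Tnfrsf9) differed by -9.72 and -6.43 points. The intervals of both lay below 0, reaching up to -0.244 and -2.53 points. All 3 loci were also lower in Treg in the PBS pair, at the positions read there, and by more points. Tnfrsf4 stood at 42.1% and 77.4% in PBS mice, a difference of -35.3 points, and Tnfrsf18 and Tnfrsf9 differed by -18.5 and -8.79 points.

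Across all tested windows, 238 were called lower in Treg and 198 higher, 0.0465% and 0.0387% of those tested. With all read counts divided by 3, a guard against reads that enter at several positions, 17 lower and 3 higher windows were called. The lower windows stood at a median of 35.7% in Treg and 75% in Teff, and the higher windows at 79.8% and 46.3%. Of the single positions in called windows, 88.8% in the lower and 86.6% in the higher windows differed in the direction of their window. Windows were selected on the sum of these positions, so a high share was set in advance and is no separate support. That also holds for the position counts given for single windows and promoters. The smallest called difference was 20.1 points, and the largest difference that passed the adjusted p without reaching 20 points was 19.97, with 221 such windows in all. Without regard to p, 2686 windows were lower and 3304 higher by 20 points or more. Calling depended on the reads a window held, with 45 lower and 25 higher calls in the third of windows with the fewest reads and 118 and 114 in the third with the most.

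**Figure D2:**
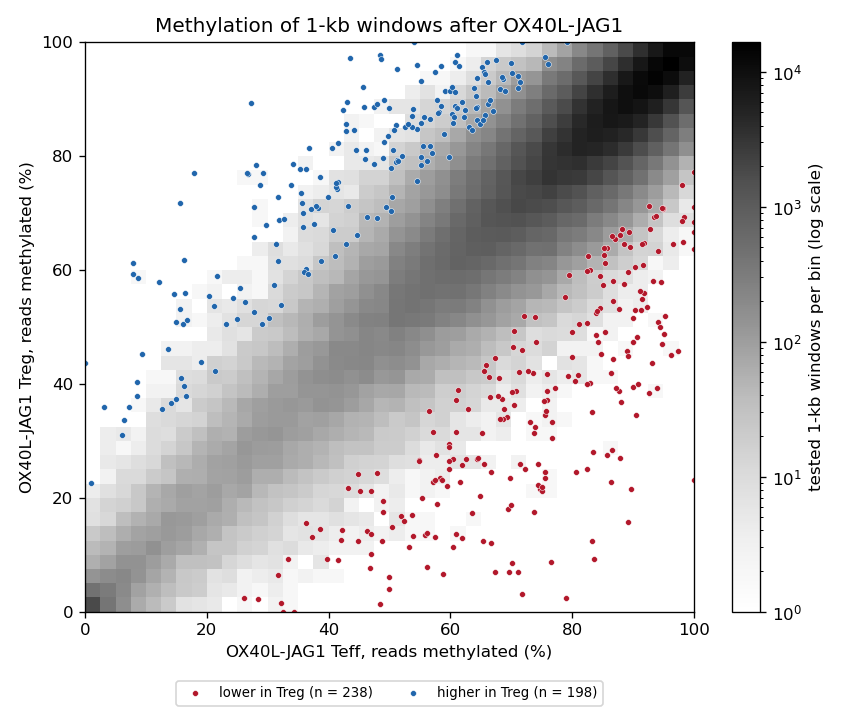
Methylated reads (%) in 511825 windows of 1 kb in OX40L-JAG1 Teff (x axis) and Treg (y axis), as the number of windows per bin of 2.5 points on a log grey scale. Red points are the 238 windows called lower in Treg and blue points the 198 called higher.

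Most called windows stood alone. Counting windows called in the same direction at steps of up to 5 kb, there were 392 runs, of which 367 held 1 window, 16 held 2 and 9 held 3 or more. Of those 9 runs, 4 lay at Ikzf2, 2 at Rhoh and 1 each at Tank and Themis. Rhoh, a small GTPase of blood cells that takes part in T cell receptor signalling, had 6 of 13 windows lower in Treg. Its window at chromosome 5, 65889001, stood at 27.6% of 747 reads in Treg and 57.7% of 813 reads in Teff, and its locus differed by -22.9 points.

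The strongest single windows lower in Treg, ranked by the bound of the difference nearest 0, were at genes of varied function. Ssbp2, a single-stranded DNA binding protein, stood at 2.44% of 41 reads in Treg and 79.1% of 43 reads in Teff at chromosome 13, 91616001. Its locus as a whole differed by 1.03 points, and another window of the gene, at 91502001, was called higher, at 86.8% and 60.7%. The best window of Atxn7l1 stood at 7.04% and 67.4% while its locus differed by 0.174 points. Phtf2 stood at 8.75% and 76.6%, Zfp609 at 35.1% and 83.3%, and a window in the flank of Sdhaf1, an assembly factor of succinate dehydrogenase, at 18.1% and 69.5%. Morrbid, a long noncoding RNA gene near the cell death gene Bcl2l11, stood at 13.7% and 60.9% (adjusted p = 5.95e-16, Fisher's exact test).

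Nfkb1, which encodes the p50 subunit of NF-kB, stood at 3.12% of 32 reads in Treg and 71.7% of 46 reads in Teff at chromosome 3, 135634001. In the PBS pair that window held only 3 positions, at 40% and 50%. Map3k1, a kinase above JNK and also among the 12 lowest, stood at 6.90% of 29 reads and 69.7% of 33 reads. Tank, which binds TRAF proteins and ranked outside the 12 lowest, had 4 called windows in a row from 61579001 on chromosome 2, with differences from -22.7 to -43.2 points.

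A group of called windows on chromosome 3 spans the adjoining genes Ift80 and Smc4, a condensin subunit, and holds the only microRNA genes in called windows. Of 1005 microRNA hairpins in the RefSeq table, 181 lay in a tested window and 2, Mir15b and Mir16-2, in a called one. Both lie in the same window, so they are a single call. Over all tested windows 0.0465% were called lower and 0.0387% higher. Their window at 69009001 stood at 1.39% of 72 reads in Treg and 48.5% of 99 reads in Teff, and at 9.84% and 57.0% in the PBS pair. The mature 5p strands of both, known to target cell cycle and Bcl2 family mRNAs, are printed because they share a seed, bases 2 to 8, in capitals (RefSeq, GRCm38.p6, plus strand, chr3:69009775-69009796 and chr3:69009918-69009939).
mmu-miR-15b-5p: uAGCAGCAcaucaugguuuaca
mmu-miR-16-5p: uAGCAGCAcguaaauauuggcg

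The neighbouring windows at 69008001, 69002001 and 69001001 stood at 1.56%, 25% and 26.9% in Treg and at 32.3%, 82.5% and 87.9% in Teff. Smc4 thus had 5 called windows of 13, all lower in Treg, and shared 4 of them with Ift80 or its 5-kb margin. Methylation of these windows says nothing of the level of either microRNA, which was not measured.

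In genes typical of naive and conventional T cells the called windows were higher in Treg. Of 20 genes of that list with a tested window, 5 had a window higher in Treg and 0 a lower one, where 0.425% of all 44445 genes measured had a higher and 0.441% a lower window. Tcf7, which encodes TCF-1, a factor of naive and memory T cells, stood at 67.9% in Treg and 29.7% in Teff at chromosome 11, 52271001, and its locus differed by 17.0 points. Lef1, its close relative, had 4 of 34 windows higher, 16 with an interval wholly above 0, and a locus difference of 11.6 points. Satb1, a chromatin organiser, stood at 81.4% and 36.8% at chromosome 17, 51822001, with a locus difference of 10.7 points. Themis, which acts in thymocyte selection, had a run of 4 called windows, chr10:28670001-28677000, at 51.2% to 71.3% in Treg and 15.6% to 37.9% in Teff. Bach2, a repressor of effector programmes, had 1 called window of 112, at 79.6% and 45.9%, and a locus difference of 0.756 points (interval from -0.104 to 1.61).

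Of 28 genes of T cell receptor signalling, 2 held a higher window and 0 a lower one, while 10 loci had an interval above 0 and 3 below. Over the loci of all 47803 genes with a value, 7.72% had an interval above 0 and 3.38% below. Prkcq, which encodes protein kinase C theta, stood at 78.4% and 28.0% in its 1 called window of 42. The CD3 chain genes Cd3e and Cd3d had no called window, and their loci differed by 11.6 points (interval from 7.41 to 15.6) and 9.70 points (interval from 3.21 to 16.1). Cd5, a receptor that dampens this signal, differed by -13.2 points in the opposite direction (interval from -19.2 to -7.03). A window within the T cell receptor beta locus, Tcrb, at chromosome 6, 41253001, stood at 61.3% in Treg and 7.84% in Teff.

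The other genes ranked among the 12 highest in Treg came from varied pathways. Emb, a membrane glycoprotein that partners monocarboxylate transporters, stood at 75% of 232 reads and 28.8% of 243 reads (adjusted p = 1.08e-19, Fisher's exact test). Pced1b stood at 89.3% and 27.3%, the largest called difference in this direction, 62.0 points. The autophagy genes Uvrag and Atg5 stood at 97.3% and 97.8% in Treg and at 43.6% and 48.5% in Teff. Rgs3, a regulator of G protein signalling, was higher in Treg at all 20 positions of its window, at 73.5% and 35.4%. Cabcoco1 stood at 58.6% and 8.75%, and Itpr2, an IP3-gated calcium channel, at 76.9% and 26.8%.

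Hdac6, a deacetylase of tubulin and other cytoplasmic proteins, was higher in Treg at its promoter. The RefSeq interval (GRCm38.p6, minus strand, chrX:7947840-7948139) is printed because it was the promoter with the largest difference, with the 11 measured CpG pairs of 20 in capitals.
Hdac6: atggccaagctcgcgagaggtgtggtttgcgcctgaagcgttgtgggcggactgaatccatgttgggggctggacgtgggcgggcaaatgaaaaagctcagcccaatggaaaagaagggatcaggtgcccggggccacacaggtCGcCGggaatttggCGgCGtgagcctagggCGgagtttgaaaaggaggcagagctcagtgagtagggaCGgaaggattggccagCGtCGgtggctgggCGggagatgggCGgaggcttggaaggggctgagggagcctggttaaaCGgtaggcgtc

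It stood at 59.3% of 59 reads in Treg and 7.79% of 77 reads in Teff, a difference of 51.5 points (interval from 36.4 to 63.8), and all 11 positions were higher in Treg. Each position had 5 or 6 reads in Treg and 6 to 8 in Teff. Positions this close share reads, so the 59 and 77 reads may come from few molecules. The 1-kb window at 7947001, with the same 11 positions, was not called with all read counts divided by 3. In the PBS pair the interval stood at 24.0% of 25 reads in Treg and 48.3% of 29 reads in Teff, so the direction was the opposite there. The promoter of Gm39488, on the opposite strand, overlaps it and shares 9 of its positions.

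The promoters that could be tested differed little as a class, and most could not be tested. RefSeq promoter intervals, from 250 bases before to 50 after a gene start, held at least 5 kept positions in 1239 of 32817 cases. Of these 1239, 1 (0.0807%) was called lower in Treg and 5 (0.404%) higher. Their median level was 6.90% in Treg and 6.67% in Teff, and 57.5% were under 20% in both. The 58 promoters on the X chromosome stood at a median of 44.4% in Treg and 46.4% in Teff, against 5.56% and 5.24% for the 1181 others. Besides Hdac6 and Gm39488, the higher promoters were those of Eif5a, a translation factor (21.7% and 1.39%), and of the gene models Gm36329 (46.0% and 6.78%) and 4930477N07Rik (93.9% and 57.8%). The 12 positions of the Eif5a promoter had 5 reads each in Treg, of which 0 to 2 were methylated. Positions close together share reads, so its 60 Treg reads may come from few molecules. At another RefSeq start of Eif5a, chr11:69921909-69922208, 1 position was measured, at 0% of 6 reads in both libraries. In the PBS pair the called Eif5a promoter stood at 1.65% and 0.625%.

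Windows that overlap a promoter interval gave 9 calls. Runx3, a factor of cytotoxic and helper T cell fate, stood at 50.6% of 172 reads in Treg and 23.1% of 130 reads in Teff in the window that holds its start on chromosome 4, 135120001, and at 44.9% and 14.8% in the PBS pair. Its 300-base promoter interval there had 2 positions, at 6.25% of 16 reads and 0% of 14 reads, so most of the window's difference lay outside it. Tagap, a GTPase activating protein of activated T cells, stood at 0% of 53 reads in Treg, which allows up to 5.66%, and at 32.6% of 43 reads in Teff. Arhgef3, a guanine nucleotide exchange factor, showed the reverse, at 43.8% of 32 reads in Treg and 0% of 37 reads in Teff, which allows up to 8.11%. These limits take 3 counts of the total and cover counting error only. Churc1 was lower in Treg, and Sytl3, Fuca2 and Gm40550 were higher, while Foxp3 and Hdac6 are described above.

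Called windows were spread over genes and the space between them. Of 256145 windows in gene bodies 177 (0.0691%) were lower and 136 (0.0531%) higher. Of 7478 windows that overlap a promoter interval 3 (0.0401%) were lower and 6 (0.0802%) higher. Of 46460 windows in 5-kb flanks 20 (0.0430%) were lower and 20 (0.0430%) higher, and of 201742 windows outside genes 38 (0.0188%) and 36 (0.0178%). By chromosome the lower windows ranged from 4 on chromosome 8 to 43 on chromosome 1, which carries Ikzf2, and the higher ones from 4 on chromosome 8 to 18 on chromosome 9. The X chromosome held 2 and 2 among 30550 windows. These shares are descriptions, since windows of a gene are not independent and depth differs between features.

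The direction of calls varied with the level a window had in Teff of PBS mice, a library outside the comparison. Where PBS Teff was at 80% or more, 121 windows were lower and 22 higher of 328874. Where it was from 20% to 80%, 78 were lower and 127 higher of 73679, and where it was under 20%, 4 were lower and 31 higher of 6138. The pooled difference in these classes was 0.226, 0.838 and 0.572 points. A call needed 20 points, so a window at 80% or more in OX40L-JAG1 Teff had almost no room to be called higher. A window under 20% there had no room to be called lower. Pooled levels in OX40L-JAG1 Teff were likewise high and low in the highest and lowest PBS classes. The direction of calls in those classes was thus largely bound by this limit, and the counts cannot show a separate link with level.

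By gene list, the Treg signature stood lowest. Of its 26 genes with a tested window, 6 had a lower window (Foxp3, Ikzf2, Ikzf4, Il2ra, Tigit and Cd83) and 0 a higher one. Its median locus difference was -2.08 points against 0.477 points over 47803 genes, and 11 of its loci had an interval below 0 and 1, Il10, above. Over all genes 3.38% of loci had an interval below 0 and 7.72% above. A lower window was called in 0.441% of all genes measured and a higher one in 0.425%. Nrp1, Entpd1, Itgae and Klrg1, also of the list, differed by 1.36, 0.190, -1.19 and 0.860 points, each with an interval that spanned 0. The effector and helper list is made of lineage factors, cytokines and chemokine receptors. It had 1 lower window in each of 3 of 21 genes (Batf, Gata3 and Rora) and 1 higher window in each of 2 (Ccr4 and Runx3). As a locus Batf differed by -6.70 points with an interval below 0. The loci of Gata3, Rora, Ccr4 and Runx3 differed by -0.577, 0.624, 2.64 and 2.74 points, each with an interval that spanned 0. Batf, an AP-1 family factor, stood at 59.7% and 89.1%, and Gata3, the Th2 factor, at 60.0% and 83.0%. The cytokine genes of the list had no called window. Il5 differed by 3.68 points as a locus (interval from 0.477 to 6.82), while Ifng, Il4, Il13, Il17a, Il21 and Il22 differed by -0.299 to 2.51 points, each with an interval that spanned 0.

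Both ligands given to the mice act through pathways that were listed here, and the lists were not tested against each other. The counts of loci below stand against 3.38% with an interval below 0 and 7.72% above over all genes. Those of genes with a window stand against 0.441% lower and 0.425% higher. In the OX40 and NF-kB list 2 of 26 genes had a lower window (Tank and Nfkb1) and 0 a higher one, the median locus difference was -1.52 points, and 9 loci had an interval below 0 and 0 above. Rel, which encodes the NF-kB subunit c-Rel, differed by -7.83 points (interval from -11.0 to -4.64) and had no called window. The list shares Tnfrsf4, Tnfrsf9 and Tnfrsf18 with the Treg signature. In the Notch list no window of 23 genes was called, the median was 0.921 points, and 6 loci had an interval above 0 and 2, Dll3 and Nrarp, below. Nrarp, a feedback inhibitor of Notch, differed by -14.0 points (interval from -24.0 to -3.47) over 22 positions. Rbpj, the DNA-binding partner of Notch, differed by 2.78 points.

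The counts for the other lists stand against 0.441% of all 44445 genes measured with a lower window and 0.425% with a higher one. At such shares a list of this size would mostly hold none, so an empty list says nothing particular of its genes. No window was called in the B cell list (10 genes) or in the CD8 T and NK cell list (11 genes), with median locus differences of 0.695 and 1.29 points. In the myeloid list 1 gene of 15, Spi1, which encodes PU.1, had 2 windows higher in Treg, and the one at chromosome 2, 91088001, stood at 86.8% and 55.7%. No window was called in the inhibitory receptor (15 genes), DNA methylation machinery (18), imprinted (21), housekeeping (14) or germline (14) lists, whose medians ran from -0.649 to 0.807 points. The IL-2 receptor and STAT5 list had Il2ra alone of 17 genes, and the homing list had Ccr4 and Emb of 23, both higher. Whether other cells in the sorted fractions had a part in any result was not tested.

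**Figure D3:**
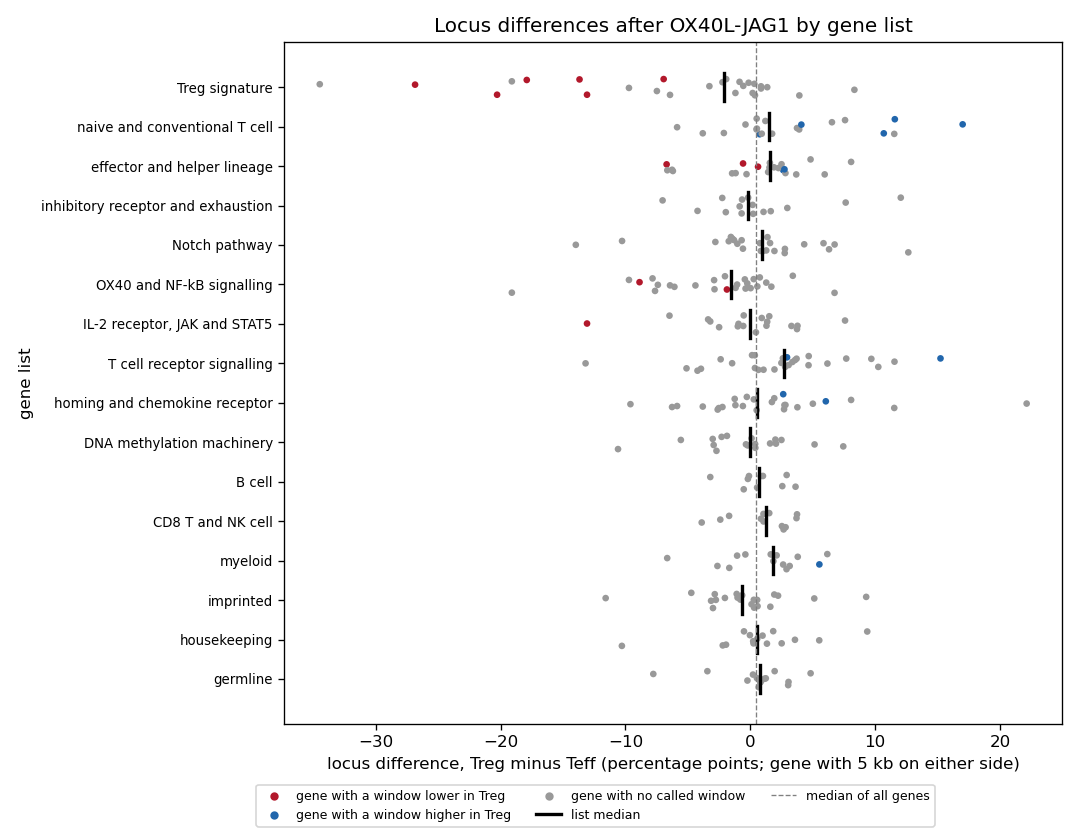
Locus difference, Treg minus Teff after OX40L-JAG1, in percentage points for each gene of 16 lists, with the list medians as black bars and the median of all genes, 0.477 points, as a dashed line. Red and blue points are genes with a called window lower or higher in Treg, grey points genes with none, and the vertical scatter within a list is arbitrary.

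The windows called after OX40L-JAG1 mostly differed in the same direction between the PBS libraries, which share no library with this comparison. Of 203 lower windows with at least 5 positions in the PBS pair, 189 were also lower there, with a median of -26.9 points against -34.3 points, and 119 were called there too. Of 180 higher windows 153 were also higher, with a median of 19.9 points against 30.5 points, and 73 were called. The windows were selected on the OX40L-JAG1 pair, so their larger size there is not a result. The 119 shared lower windows made up 58.6% of the OX40L-JAG1 list and 17.5% of the PBS list over the windows tested in both, and the 73 higher ones 40.6% and 17.9%. Over all 408691 windows tested in both pairs, 679 were called lower and 408 higher in the PBS pair. The median PBS difference over the 314531 windows read in all 4 libraries was -0.158 points. No window was called in opposite directions, which says little where so few windows were called in either pair. For the called windows of Ikzf2 that could be compared, 23 in number, the median was -55.5 points after OX40L-JAG1 and -46.5 points in PBS mice. At Lef1 the medians were 25.4 and 44.7 points over 4 windows.

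**Figure D4:**
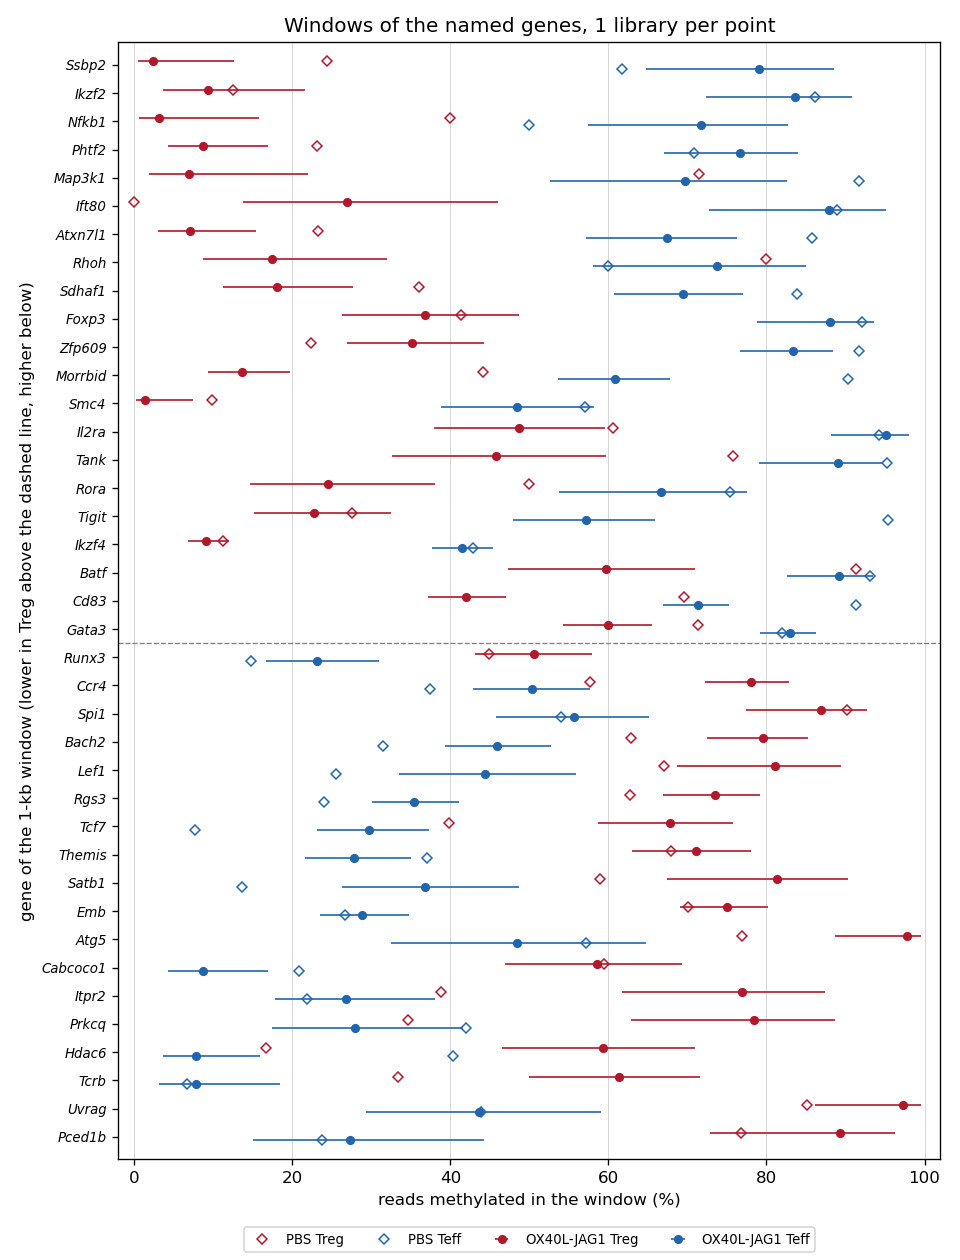
Methylated reads (%) in the window of each of 39 named genes in OX40L-JAG1 Treg and Teff (filled circles with 95% Wilson intervals) and in PBS Treg and Teff (open diamonds, at the positions with 5 reads in both PBS libraries). Genes above the dashed line were lower in Treg after OX40L-JAG1 and genes below it higher, 1 library per point.

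Some of the named windows did not look alike in the pairs. Batf differed by -29.5 points after OX40L-JAG1 and by -1.83 points in PBS mice, and Prkcq by 50.4 and -7.31 points, yet neither was among the windows where the pairs differed by the Wald test described next. Il2ra at 11670001 differed by -37.4 and -4.45 points.

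The difference between the pairs was tested in the 314531 windows read in all 4 libraries, with a Wald test of the interaction of cell type and treatment. It was called, at an adjusted p under 0.05 and at least 20 points, in 34 windows (0.0108%), 24 with a more positive difference after OX40L-JAG1 and 10 with a more negative one. With all read counts divided by 3, a guard against reads that enter at several positions, 1 positive and 0 negative windows were called. In 27 of the 34 the cell types lay closer together after OX40L-JAG1, and in 26 the Teff libraries differed more between treatments than the Treg libraries. Over all 34 the median size of the difference was 12.1 points after OX40L-JAG1 and 23.2 points in PBS mice. These windows were selected on the same values, and the like shares over all windows were not computed, so these counts only describe the 34. Ptk2b, which encodes the focal adhesion family kinase Pyk2, stood at 65.0% in Treg and 52.4% in Teff after OX40L-JAG1 and at 73.6% and 91.9% in PBS mice. Epg5, an autophagy gene, stood at 26.3% and 54.0% after OX40L-JAG1 and at 14.4% and 91.0% in PBS mice. Beside Prdm1, the gene of the effector regulator Blimp-1, the levels were 54.9% and 42.8% against 72.7% and 90.7%. Pcyt1a, an enzyme of phosphatidylcholine synthesis, stood at 56.0% and 44.2% against 54.5% and 7.11%.

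**Figure D5:**
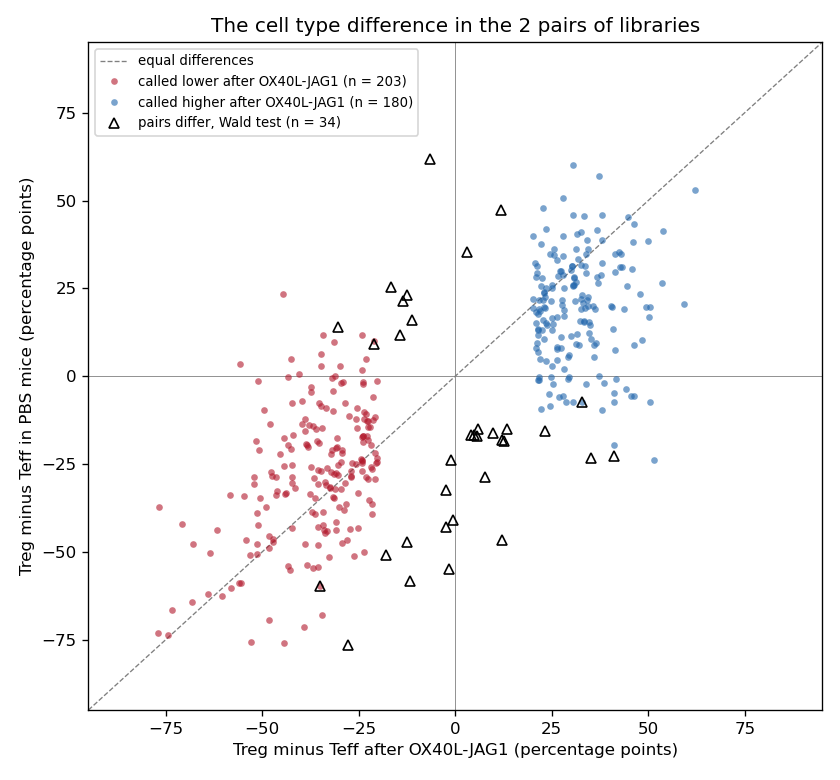
Treg minus Teff difference in PBS mice against that after OX40L-JAG1, both in percentage points, for the called windows with at least 5 positions in the PBS pair (203 lower in red, 180 higher in blue) and the 34 windows where the pairs differed by the Wald test (triangles). Most circles lie on the same side of 0 on both axes, while most triangles lie nearer 0 on the OX40L-JAG1 axis.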

How the data were processed

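The authors sequenced bisulfite-converted DNA of 4 libraries, prepared with Zymo Lightning EZ conversion and Kapa Hyper library reagents, per the labels' protocols. The submitters' processing notes name Trimmomatic, Bismark and mm10 without tool versions. The deposited table gives, per the file headers, the count of reads and the count of methylated reads at each position. It also gives a deposited methylation level, which runs as a fraction from 0 to 1 and was not used. Each deposited count above 0 is at least 5, so listed totals (103584075 reads in OX40L-JAG1 Treg, 159291553 in OX40L-JAG1 Teff) are not library depth.

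Reads were summed per 1-kb window over positions with at least 5 reads in both libraries, and windows with at least 5 such positions were tested with a two-sided Fisher's exact test and Benjamini-Hochberg adjustment over all windows. A call needed an adjusted p under 0.05 and 20 points. The Wald test of the interaction added 0.5 to each cell. Intervals are 95% Wilson (levels) and Newcombe (differences). Both hold counting error alone: positions close together share reads, and duplicate reads may remain. With 1 library per group, p-values compare libraries and not conditions. Genes came from RefSeq GRCm38.p6, the assembly mm10 names, without strand or exons, and a window belonged to a gene within 5 kb. Named genes were Foxp3, Ikzf2 and Il2ra, the 12 lowest and 12 highest genes (predicted models left out) ranked on the bound of the difference closest to 0, those of 16 lists that held a called window, the 5 with most called windows each way, and up to 5 each way by the Wald statistic. Not each gene so named is described, and some are not reported here. Members and lists were chosen with earlier results of these data known, and the promoter intervals, the classes by PBS Teff level and the Ctla4 values were added after seeing the data. Tests were tried on simulated reads. Python 3.11.15, numpy 2.4.6, pandas 2.3.3, scipy 1.17.1, numba 0.67.0 and matplotlib 3.10.9 were used.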

Additional observations from a re-analysis of the deposited data

Results flagged for a closer look

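At 34 windows the Treg minus Teff difference after OX40L-JAG1 was not that of the PBS pair, by a Wald test of the interaction with Benjamini-Hochberg adjustment. With 1 library per group this compares 4 libraries and not treatments, and with all read counts divided by 3 only 1 window was called. The difference after OX40L-JAG1 minus that in PBS mice was 30.9 points at Ptk2b, 32.9 at Gm33897, 48.9 at Epg5, 40.4 at Gm41750 and 30.2 beside Prdm1. It was -27.2 points at Mir99ahg, -35.6 at Pcyt1a, -68.5 at Pdlim5, -44.2 at Ahi1 and -30.3 at Rlbp1. At Pdlim5, a PDZ and LIM domain protein of the actin cytoskeleton, Teff stood at 90.5% after OX40L-JAG1 and 29.1% in PBS mice, and Treg at 84.0% and 91.0%. At Ahi1 the levels were 48.9% and 6.35% in Teff and 18.6% and 20.2% in Treg.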

How the results depend on the processing

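No result that had a value under an alternative changed direction, but many lost their call and named windows did not all have values. Counts moved with depth and window rules, and with 10 reads more windows were higher than lower. Lower and higher windows numbered 70 and 85 with a minimum of 10 reads a position (86545 windows tested), 72 and 63 with at least 10 positions a window (65068 tested), and 17 and 3 with all read counts divided by 3, a guard against reads that span positions. Higher windows numbered 106 at 30 points and 310 at 10 points. Genes with a lower and a higher window numbered 67 and 84 with 10 reads, and 9 and 4 with counts divided by 3. Treg signature genes with a lower window numbered 3 with counts divided by 3, and naive and conventional T cell genes with a higher window 2 with 10 reads and 1 with counts divided by 3. Windows where the pairs differed numbered 0 negative and 1 positive with counts divided by 3. The pooled difference was 0.577 points with 10 reads, 0.473 without positions over 50 reads and 0.547 over positions read in all libraries. Lower calls made up 45.2% of all with 10 reads and 85.0% with counts divided by 3. Of 40 named windows 5 kept their call with counts divided by 3 (Cd83, Emb, Ikzf4, Morrbid and Phtf2), as did all 11 with a value at 10 reads. In windows shifted by 500 bases 34 of 37 kept it, and Batf, Bach2 and Lef1 did not. Some shifted windows, such as that of Foxp3 at -51.2 points, gave the same difference as before and were no separate check. With positions weighted equally no new test was run. There 39 of 40 still differed by at least 20 points, and Runx3 stood at 18.3 points. No paired analysis was possible because each group has 1 library.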
